A study of Mus musculus with 18 samples.

Results

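MERVL is a mouse endogenous retrovirus of the ERVL class, and the MT2 elements are its long terminal repeats (LTRs) and their older relatives. They were taken here as the 8 rows whose repeat name begins with MERVL or MT2, of 1365 repeat subfamilies in each of 3 tables, 1 per cell type. All 8 rows carry the class LTR/ERVL and all 8 had an adjusted p in every table. They are MERVL-int and MERVL_2A-int, which are internal parts and would hold the gag and pol coding regions, and MT2_Mm, MT2A, MT2B, MT2B1, MT2B2 and MT2C_Mm, which are LTRs. A row sums the reads of all genomic copies of its subfamily, so no single copy or locus can be read from it.

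The data are poly(A) RNA sequencing of 18 libraries, 3 in each of 6 groups. The treated groups were embryonic stem cells (ESCs), neuronal progenitor cells (NPCs) and bone-marrow-derived macrophages given the HSP90 inhibitor NVP-AUY922 for 24 h at 100 nM, 50 nM and 500 nM in that order. The other 3 groups were ESCs, NPCs and macrophages without the inhibitor. The strain background was 129S1/CASTEiJ for the ESCs, kept in 2i medium, and for the NPCs, kept with EGF and FGF. It was BALBC/C57BL6 for the macrophages, which were grown from bone marrow with M-CSF. Cell type, dose and, for macrophages, strain therefore changed together and cannot be told apart. The tables hold repeats and no genes, so the cell types could not be set against marker genes. The title of the study places it in the question of whether HSP90 buffers the regulatory effects of endogenous retroviruses.

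HSP90 is a chaperone on which kinases, receptors and other client proteins depend to fold. MERVL is one of the first elements to be transcribed when the mouse embryo switches on its own genome, and it falls silent soon afterwards. In ESC cultures it is known to be transcribed in a rare fraction of cells that resemble the early cleavage embryo. Its LTR MT2_Mm serves as promoter of the provirus and, where it lies near genes, as an alternative promoter that gives chimeric transcripts with their exons. Solitary LTRs, left when a provirus recombines away, outnumber the full elements, and other LTRs of the MT2 group descend from earlier waves of insertion.

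Each of the authors' deposited tables gives, per row, a base mean, a log2 fold change between the 3 treated and the 3 untreated libraries of a cell type, its standard error (SE), and a p and adjusted p of DESeq2's Wald test. It gives no value per library. The base mean, in normalised reads, averages over the libraries the read counts after division by size factors. The tables do not state which group was the numerator. Rows are therefore given by the sign of the contrast, as its positive or its negative side, without naming the group with more RNA. In the bulk RNA, a larger share of expressing cells and more RNA per expressing cell cannot be told apart. The sources used here do not give the depth of a library.

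In ESCs 6 of the 8 rows passed the test on the positive side of the contrast, led by the young provirus and its own LTR. MERVL-int had a log2 fold change of 2.95 ± 0.08 (SE) in the authors' deposited table, which puts the groups 7.73-fold apart, with a base mean of 53553. The authors' deposited table gave MT2_Mm a log2 fold change of 2.34 ± 0.07, a 5.07-fold difference, with a base mean of 9242. The 6 rows past an adjusted p of 0.05 on the positive side and the 0 on the negative side stand against 10.2% and 12% of all 1132 rows tested in the authors' deposited table (22.2% on either side). At an unadjusted p under 0.05 the counts were 6 and 0. MT2A and MT2B did not pass. The median log2 fold change of the 8 rows was 0.53, and that of all tested rows 0.00.

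The internal part and the LTR of the young provirus were at the end of the whole ESC table. By log2 fold change MERVL-int ranked 2 and MT2_Mm ranked 4 from the positive end of the 1132 tested rows of the authors' deposited table. DESeq2's Wald test had an adjusted p listed there at 0 for MERVL-int, which is below what the table's number format can hold, and at 3.228e-245 for MT2_Mm. If the fold change of MERVL-int is taken at face value, its base mean corresponds to 94841 normalised reads per library in one group and 12264 in the other, by arithmetic on the authors' deposited table. For MT2_Mm the same arithmetic gives 15441 and 3044 normalised reads. By this arithmetic both ESC groups, treated and untreated, had reads counted in these rows. If the fold changes are shrunken towards 0, the lower values are too high. The reads need not come from the provirus, because transcripts of genes that hold a copy can also enter a row.

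The internal part and its LTR differed in the size of their values. The log2 fold change of MERVL-int exceeded that of MT2_Mm by 0.61 in ESCs, and their 95% intervals, 2.80 to 3.10 and 2.21 to 2.48, did not overlap. Both rows come from the same libraries and may share reads, so no test of this gap was made. Reads in MT2_Mm can also come from solitary LTRs, whose share in the row was not measured.

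The other LTRs followed at a distance and in a graded order. In the authors' deposited table for ESCs, MT2C_Mm had a log2 fold change of 0.88 ± 0.08, a 1.84-fold difference. MT2B2 had 0.57 ± 0.08, a 1.49-fold difference, and MT2B1 had 0.21 ± 0.07, a 1.15-fold difference, in the authors' deposited table. MT2B1 was nearest to the threshold of the 6, its adjusted p being 0.0241. The second internal part, MERVL_2A-int, had 0.48 ± 0.08, a 1.40-fold difference, which is closer to these LTRs than to MERVL-int.

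MT2A and MT2B, at base means of 3837 and 8644, lay close to 0 in ESCs. The authors' deposited table gave them log2 fold changes of 0.05 ± 0.07 and -0.05 ± 0.07, and DESeq2's Wald test adjusted p of 0.663 and 0.704. The 95% interval of MT2A ran from -0.08 to 0.19 and that of MT2B from -0.19 to 0.09, so that changes beyond about 0.2 on the log2 scale lay outside both. Among the 7 neighbouring pairs in the ESC order, the intervals stood apart for the upper 3, which separate MERVL-int, MT2_Mm, MT2C_Mm and MT2B2. The intervals of the lower 4 pairs overlapped, which does not show that the rows of a pair are alike. All rows come from the same libraries, and no test of these gaps was made.

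**Figure D1:**
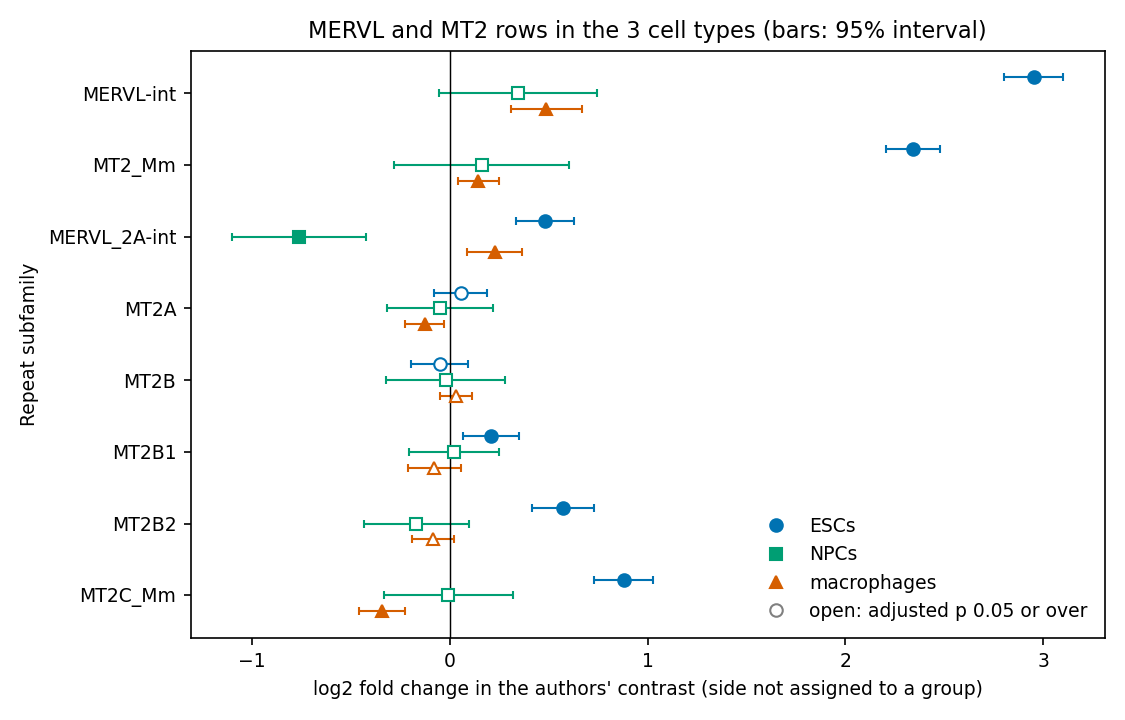
Log2 fold change (x axis, log2 units) of the 8 MERVL and MT2 rows (y axis) in the authors' deposited tables for ESCs, NPCs and macrophages, with bars for the 95% interval, filled symbols for an adjusted p under 0.05 and open symbols for the others. MERVL-int at 2.95 and MT2_Mm at 2.34 in ESCs stand apart from all other points, which lie between -0.76 and 0.88.

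In NPCs MERVL-int and MT2_Mm did not pass the test, and the row that passed was MERVL_2A-int, on the negative side. MERVL_2A-int had a log2 fold change of -0.76 ± 0.17 in the authors' deposited NPC table, a 1.69-fold difference at a base mean of 7051, with an adjusted p of 2.676e-04 by DESeq2's Wald test. Of the 8 rows 0 passed on the positive and 1 on the negative side, against 4.96% and 6.81% of the 1249 rows tested (11.8% on either side). At an unadjusted p under 0.05 the counts were also 0 and 1, and a share of 1 in 8 is close to this background. The median log2 fold change was -0.01 for the 8 rows and 0.00 for all tested rows.

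MERVL-int had a log2 fold change of 0.34 ± 0.20 in NPCs in the authors' deposited table, at a base mean of 15506, where its adjusted p was 0.352. The authors' deposited table gave MT2_Mm 0.16 ± 0.23 at a base mean of 3698 and an adjusted p of 0.780. Both values were on the positive side and neither passed. The 95% interval of MERVL-int, -0.05 to 0.74, and that of MT2_Mm, -0.28 to 0.60, leave room for changes of over 0.5 in that direction, but not for the values of over 2 that these rows had in ESCs.

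The older LTRs lay near 0 in NPCs. MT2A, MT2B, MT2B1 and MT2C_Mm had log2 fold changes of -0.05 ± 0.14, -0.02 ± 0.15, 0.02 ± 0.12 and -0.01 ± 0.17 in the authors' deposited table, and MT2B2 had -0.17 ± 0.14. For the 7 rows that did not pass, adjusted p lay between 0.352 and 0.987. Errors were larger in this table: the SE of the 8 rows was 0.12 to 0.23, against 0.07 to 0.08 in ESCs and 0.04 to 0.09 in macrophages. A row here needed an absolute log2 fold change between 0.32 and 0.62, depending on its SE, to reach the smallest Wald statistic called in the authors' deposited table. Changes of the size of MT2B1 in ESCs were therefore not detectable in NPCs.

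In macrophages both sides of the contrast were occupied, and no value was further from 0 than 0.49. MERVL-int, MERVL_2A-int and MT2_Mm passed on the positive side, with log2 fold changes of 0.49 ± 0.09, 0.23 ± 0.07 and 0.14 ± 0.05 in the authors' deposited table. MT2C_Mm and MT2A passed on the negative side, with -0.34 ± 0.06 and -0.13 ± 0.05 in the authors' deposited table. The 3 positive and 2 negative rows of 8 stand against 13.3% and 12.5% of the 1255 rows tested (25.8% on either side). The changes themselves were not larger: the median absolute log2 fold change was 0.135 for the 8 rows and 0.223 for all tested rows. The SE of the 8 rows was 0.04 to 0.09, against a median of 0.113 once low-count rows (base mean under 50) were left out. This background was not matched for precision, so the higher share of calls does not show a stronger response of the family. The median log2 fold change of the 8 rows was -0.02, and that of all tested rows -0.01.

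The macrophage calls differed in how far they were from the threshold. MERVL-int, at a base mean of 5003 and with groups 1.40-fold apart, had an adjusted p of 1.100e-06 by DESeq2's Wald test in the authors' deposited table. MT2C_Mm, at a base mean of 872 and with a 1.27-fold difference, had 1.468e-07. MERVL_2A-int had 0.00772, while MT2_Mm, with a 1.11-fold difference, had 0.0266 and MT2A, with a 1.09-fold difference, had 0.0457 in the authors' deposited table. MT2A no longer passed when the table was centred on the median of its tested rows (adjusted p = 0.0791), and over the alternatives its adjusted p ran from 0.0325 to 1.

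MT2B, MT2B1 and MT2B2 did not pass in macrophages. MT2B, at a base mean of 8475, had a log2 fold change of 0.03 ± 0.04 in the authors' deposited table, MT2B1 had -0.08 ± 0.07 and MT2B2 had -0.09 ± 0.05. MT2B was the 1 row of the 8 that did not pass in any of the 3 tables. Its 95% intervals were -0.19 to 0.09 in ESCs, -0.32 to 0.28 in NPCs and -0.05 to 0.11 in macrophages.

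**Figure D2:**
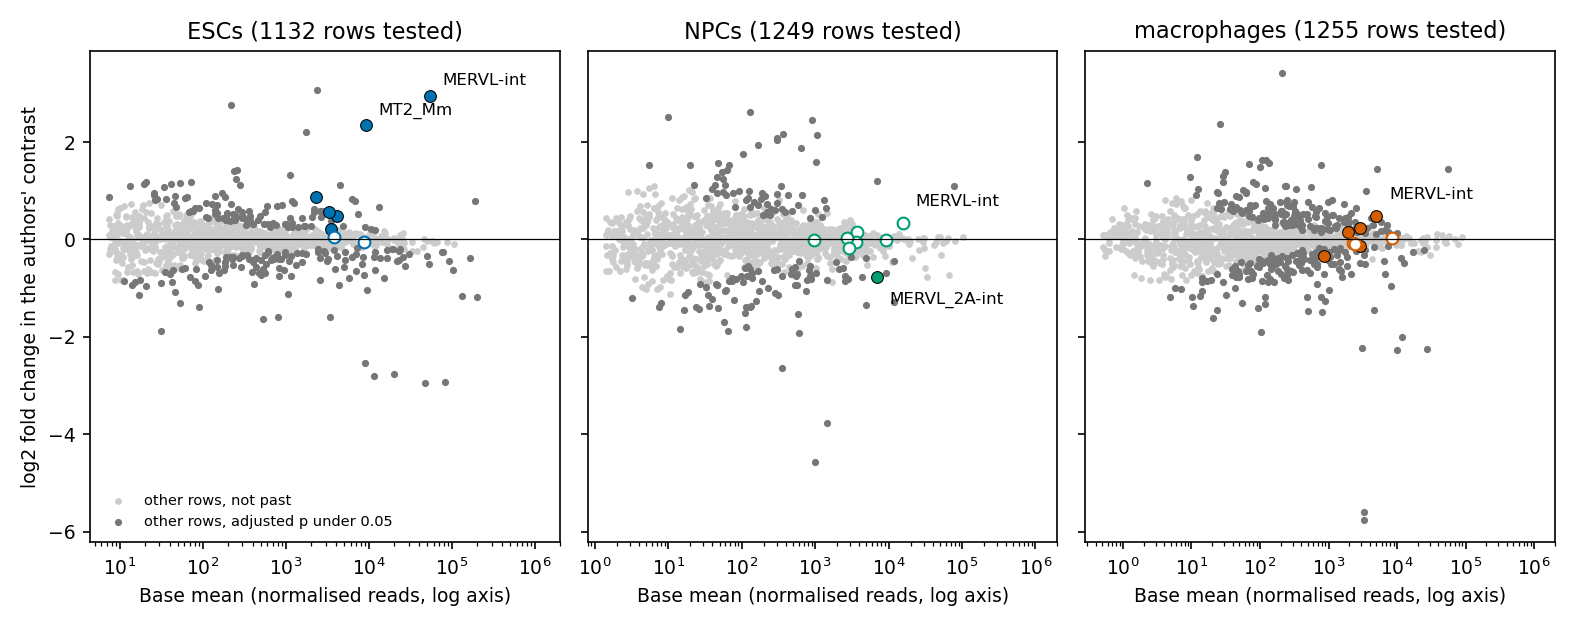
Log2 fold change (y axis) against base mean in normalised reads (x axis, log scale) of every tested row in the authors' deposited tables, with grey points for other rows and large symbols for the 8 MERVL and MT2 rows, filled where the adjusted p was under 0.05. MERVL-int, at a base mean of 53553, is at the upper right in ESCs, while in NPCs and macrophages the 8 rows lie between -0.76 and 0.49.

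The difference between cell types was tested for each row, by dividing the gap between its log2 fold changes by the root of the summed squared SE, with a normal p, two-sided, that was adjusted by Benjamini-Hochberg over all rows tested in both tables. It assumes that all tables have the same numerator, which is not stated. The test also takes the fold changes at face value, although they may be shrunken towards 0, and perhaps not equally in each table. Between ESCs and macrophages 5 of the 8 rows passed on the positive side and 0 on the negative side, against 11.8% on each side of the 1124 rows compared (23.7% on either side). Between ESCs and NPCs 5 passed on the positive side and 0 on the negative side, against 6.48% and 6.13% of 1126 rows (12.6% on either side). Between NPCs and macrophages 0 passed on the positive side and 1 on the negative side, against 6.14% and 6.22% of 1222 rows (12.4% on either side). At an unadjusted p under 0.05 each of these counts of 0 was also 0. The shares over all rows were not matched for precision, so small gaps of precise rows can pass. The median absolute difference of all compared rows was 0.26 for ESCs minus macrophages and 0.28 for ESCs minus NPCs.

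MERVL-int stood further to the positive side in ESCs than in either other cell type. Its difference was 2.46 ± 0.12 on the log2 scale for ESCs minus macrophages (2.95 in ESCs, 0.49 in macrophages; adjusted p = 1.532e-92). It was 2.61 ± 0.22 for ESCs minus NPCs (2.95 in ESCs, 0.34 in NPCs; adjusted p = 6.059e-31). The fold between the groups was thus 5.51 times as large in ESCs as in macrophages and 6.09 times as large as in NPCs. MT2_Mm differed by nearly as much, with 2.20 ± 0.09 for ESCs minus macrophages and 2.18 ± 0.24 for ESCs minus NPCs.

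MT2C_Mm and MT2B2 also passed in both comparisons with ESCs, at smaller sizes. MT2C_Mm differed by 1.22 ± 0.10 on the log2 scale for ESCs minus macrophages, where its 2 values lay on opposite sides of 0, and by 0.89 ± 0.18 for ESCs minus NPCs. With the macrophage table turned, the 2 values of MT2C_Mm would lie on the same side. Their difference would then be 0.53 and would still pass (adjusted p = 3.794e-07). MT2B2 differed by 0.66 ± 0.10 for ESCs minus macrophages and by 0.74 ± 0.16 for ESCs minus NPCs. With the NPC table turned, MT2B2 for ESCs minus NPCs would be 0.40 and would not pass (adjusted p = 0.0627). MT2B1 differed by 0.29 ± 0.10 for ESCs minus macrophages, with an adjusted p of 0.0209, and did not pass for ESCs minus NPCs at 0.19 ± 0.14 (adjusted p = 0.472). With the macrophage table turned, MT2B1 would differ by 0.13 from macrophages and would not pass (adjusted p = 0.366).

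MERVL_2A-int had a pattern of its own among the 8 rows, with NPCs as the cell type apart. Its difference was 1.24 ± 0.19 for ESCs minus NPCs and -0.99 ± 0.19 for NPCs minus macrophages, with adjusted p of 1.981e-09 and 6.049e-06. For ESCs minus macrophages it was 0.26 ± 0.10 and did not pass (adjusted p = 0.0562). If the NPC table had the other numerator, its difference for ESCs minus NPCs would be -0.28 and would not pass (adjusted p = 0.360). No other member passed between NPCs and macrophages: MERVL-int differed by -0.14 there, with a 95% interval from -0.58 to 0.29, and MT2_Mm by 0.02, with an interval from -0.44 to 0.47. With the macrophage table turned, MERVL-int would differ by 0.83 for NPCs minus macrophages and pass (adjusted p = 0.00184). MT2A and MT2B passed in none of the 3 comparisons of cell types, and the intervals of MT2B ran from -0.25 to 0.08 for ESCs minus macrophages, from -0.37 to 0.30 for ESCs minus NPCs and from -0.36 to 0.26 for NPCs minus macrophages.

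**Figure D3:**
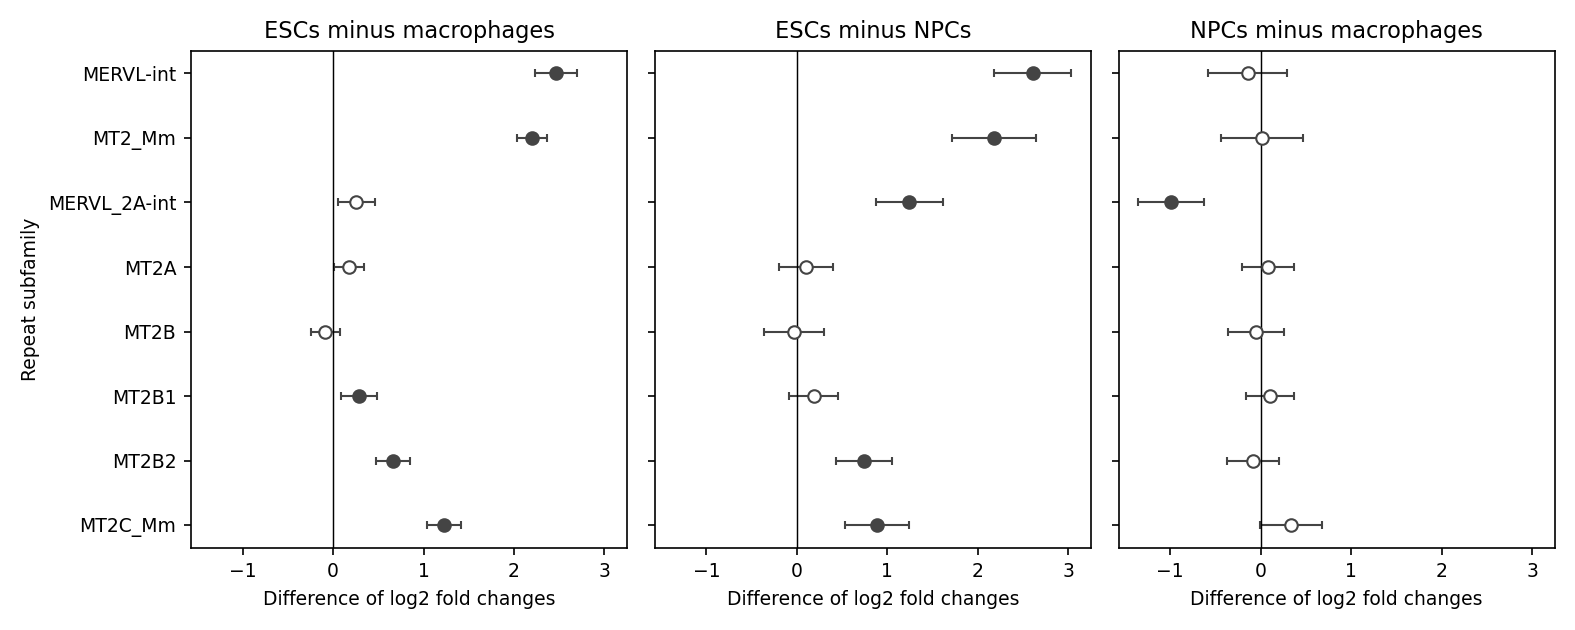
Difference of the log2 fold changes between cell types (x axis, log2 units, first-named cell type minus the second) for the 8 MERVL and MT2 rows (y axis), with bars for the 95% interval and filled symbols for an adjusted p under 0.05. MERVL-int and MT2_Mm lie beyond 2 in both panels with ESCs and near 0 in the panel of NPCs minus macrophages, where MERVL_2A-int at -0.99 is the filled symbol.

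The share of the family in all repeat reads was computed from the authors' deposited tables. With treated and untreated libraries pooled, the 8 rows held 2.30% of the summed base mean of all 1365 rows in ESCs, 2.20% in NPCs and 1.34% in macrophages. The ESC value averages groups that were far apart. Taking base means and fold changes at face value, the 8 rows held 3.90% in the ESC group on the positive side and 0.938% in the one on the negative side. The 2 groups gave 2.24% and 2.15% in NPCs, and 1.41% and 1.28% in macrophages, so that the ESC share was above or below that of the other cell types depending on the group. Each table was normalised by itself, so only shares within a table are set side by side, and they carry no error because the tables hold no values per library.

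MERVL-int alone held 1.39% of all repeat reads in ESCs, 0.744% in NPCs and 0.252% in macrophages with the groups pooled. By the same arithmetic it held 2.68% in the ESC group on the positive side and 0.296% in the one on the negative side. The NPC groups, at 0.850% and 0.642%, lay between these, and the macrophage groups had 0.298% and 0.206%. MERVL_2A-int had another order: it held 0.257% and 0.417% in the positive-side and negative-side groups of NPCs, more than in either group of ESCs (0.137% and 0.0841%) or of macrophages (0.157% and 0.130%).

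Within the family the make-up also depended on the ESC group. MERVL-int held 68.6% of the reads of the 8 rows in the ESC group on the positive side and 31.6% in the one on the negative side. It held 38.0% and 29.8% in the NPC groups and 21.2% and 16.1% in the macrophage groups, in the same order of sides. MT2B held 6.14% and 22.6% in ESCs, 20.1% and 20.3% in NPCs, and 31.0% and 32.4% in macrophages. The log2 fold change of MT2B in ESCs was -0.05 and did not pass. Its ESC shares therefore differ through the other rows, mainly MERVL-int, and restate the fold changes given above. In both macrophage groups MT2B thus had a larger, and MERVL-int a smaller, share of the family than in any ESC or NPC group. The ratio of MERVL-int to MT2_Mm was 6.14 and 4.03 in the ESC groups, 4.44 and 3.91 in the NPC groups, and 2.92 and 2.30 in the macrophage groups. The lengths of the rows, which would be needed to compare levels between them, are not known from the sources used here, and such a ratio is read across cell types only.

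**Figure D4:**
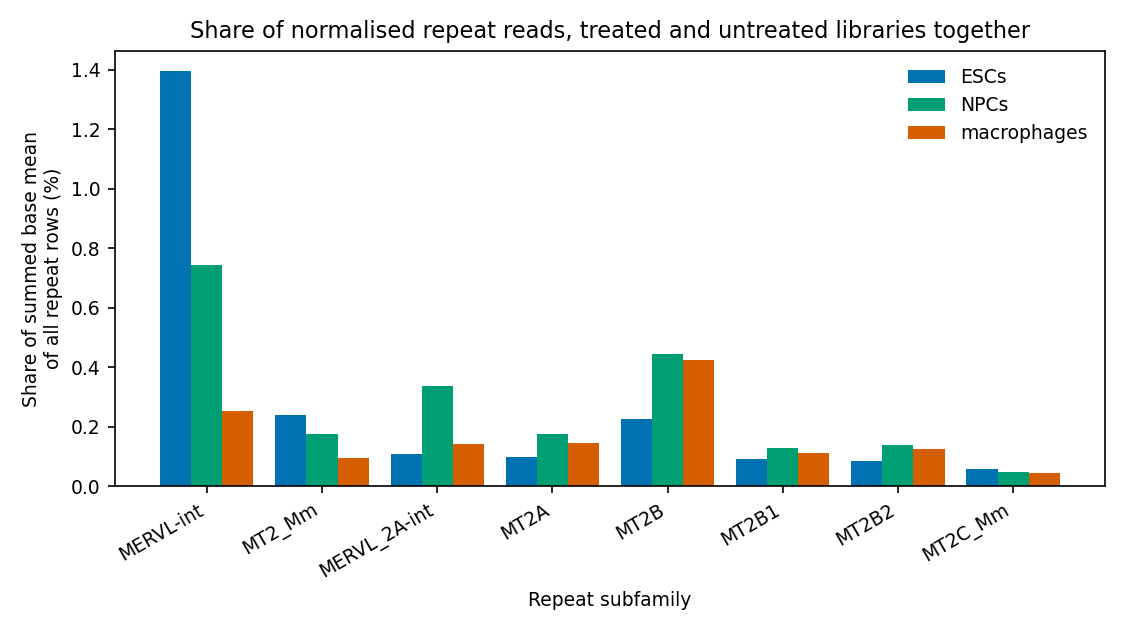
Share of the summed base mean of all repeat rows in per cent (y axis) for the 8 MERVL and MT2 rows (x axis) in each cell type, treated and untreated libraries together, computed from the authors' deposited tables and without error bars because there are no values per library. MERVL-int is at 1.39% in ESCs, 0.744% in NPCs and 0.252% in macrophages, where the ESC bar averages groups at 2.68% and 0.296%.

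Related repeats were set beside the family. Other rows of the class LTR/ERVL are mostly ancient elements shared among mammals, and the ORR1 and MT rows are rodent MaLR elements, non-autonomous relatives of ERVL. In ESCs 6 of 93 tested other ERVL rows passed on the positive side and 6 on the negative side (12.9% in all) with a median log2 fold change of 0.06, while the 8 MERVL and MT2 rows had a median of 0.53. Of 48 ORR1 and MT rows 2 were positive and 7 negative in ESCs (18.8%), with a median of 0.02. In NPCs the other ERVL rows had 4 positive and 6 negative of 99 and the ORR1 and MT rows 0 and 3 of 48. In macrophages these lists had 16 and 9 of 100, and 6 and 10 of 48.

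Single rows of these lists reached changes of the size of the older MT2 LTRs or above. In ESCs the other ERVL rows with the largest values past the test were MER54A at 1.23 ± 0.13 and LTR16D at 1.07 ± 0.27 on the positive side, and LTR16E2 at -0.89 ± 0.28 and LTR82A at -0.68 ± 0.17 on the negative side, in the authors' deposited table. Among MaLR elements in ESCs, ORR1A3-int had 1.12 ± 0.07 and MTEb-int 0.47 ± 0.11, against -0.62 ± 0.08 for ORR1A0-int and -0.40 ± 0.09 for ORR1A1-int, in the authors' deposited table. None of these 8 rows reached the log2 fold change of MT2_Mm in ESCs.

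In NPCs the corresponding ERVL rows were LTR41B at 1.56 ± 0.30, LTR40A1 at 1.23 ± 0.31, HERV16-int at -1.87 ± 0.26 and LTR16E1 at -1.26 ± 0.31 in the authors' deposited table. MTE-int and MTA_Mm-int, internal parts of MaLR elements, had -0.82 ± 0.19 and -0.68 ± 0.14 there, on the side of MERVL_2A-int and close to it in size. In macrophages LTR53B had 2.37 ± 0.30, LTR101_Mam 1.63 ± 0.22, LTR84a -1.41 ± 0.20 and LTR86B2 -1.05 ± 0.30, and among the MaLR elements ORR1F-int had 0.61 ± 0.18, ORR1A4-int 0.55 ± 0.08, ORR1A1-int -1.05 ± 0.08 and MTD-int -0.78 ± 0.08, in the authors' deposited table. All of these 8 rows, picked as the called rows furthest from 0 in their lists, were further from 0 than MERVL-int in macrophages. Their levels there were lower than the base mean of 5003 of MERVL-int. LTR53B, LTR101_Mam, LTR84a and LTR86B2 had base means of 25.7, 108, 93.6 and 14.4. ORR1F-int, ORR1A4-int, ORR1A1-int and MTD-int had 50.7, 2162, 1028 and 1574.

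**Figure D5:**
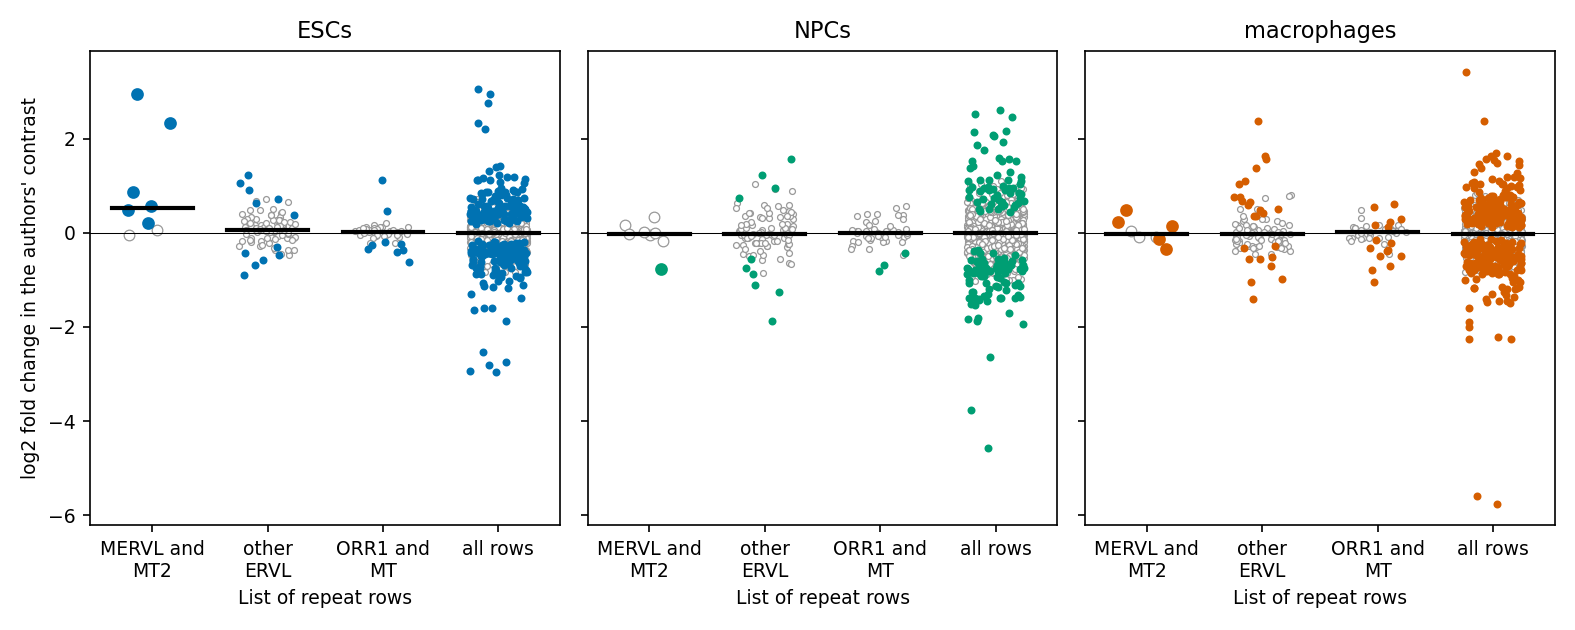
Log2 fold change in the authors' deposited tables (y axis) of tested rows in 4 lists (x axis: MERVL and MT2, other ERVL, ORR1 and MT, all rows), 1 panel per cell type, with filled points for an adjusted p under 0.05 and a black line at the median of each list. The median of the MERVL and MT2 list is 0.53 in ESCs, and the medians of all lists in NPCs and macrophages lie within 0.03 of 0.

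Outside the family, the rows most like MERVL-int over the 3 tables came from other classes of LTR element. Likeness was measured as the Euclidean distance between the log2 fold changes in the 3 cell types, over the 1121 rows tested in all of them, so it rests on 3 values per row. MT2_Mm lay at a distance of 0.72 from MERVL-int. The nearest 5 rows outside the family were RLTR44D, RLTR44-int, MER89, RLTR44A and RLTR19D, at 0.64, 0.84, 0.9996, 1.59 and 1.80 in that order. The RLTR44 rows and RLTR19D are ERVK elements and MER89 is an ERV1 element. RLTR44A and RLTR19D had ESC log2 fold changes of 1.42 ± 0.14 and 1.18 ± 0.21 in the authors' deposited table, well below the 2.95 of MERVL-int. RLTR19D had base means of only 6.33 in NPCs and 5.29 in macrophages.

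RLTR44D had log2 fold changes of 2.75 ± 0.17 in ESCs, 0.07 ± 0.41 in NPCs and 1.03 ± 0.31 in macrophages in the authors' deposited table, at base means of 217, 11.0 and 12.5. Its distance to MERVL-int, 0.64, was below the 0.72 of MT2_Mm. The distance takes no account of the SE, and this order was not tested. RLTR44-int, at a base mean of 1750 in ESCs, had 2.21 ± 0.09 in ESCs, 0.65 ± 0.29 in NPCs and 0.72 ± 0.13 in macrophages. MER89 had 3.06 ± 0.10, -0.03 ± 0.28 and -0.43 ± 0.22 in the same order in the authors' deposited table and was the 1 tested row with a larger ESC value than MERVL-int. The nearest 5 to MT2_Mm were RLTR44-int, RLTR44A, MER89, RLTR44D and ORR1A3-int, at 0.77, 0.94, 0.94, 0.98 and 1.26. ORR1A3-int passed in ESCs and in neither other table, with 1.12 ± 0.07 in ESCs, 0.00 ± 0.21 in NPCs and -0.12 ± 0.09 in macrophages in the authors' deposited table.

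The major satellite, GSAT_MM, was not called in any cell type. It had a log2 fold change of -0.44 ± 0.29 in ESCs, at a base mean of 392 and with no p in the authors' deposited table. It had -0.44 ± 0.38 in NPCs and -0.32 ± 0.36 in macrophages, neither past the test, at base means of 2.28 and 6.96. Without a p in ESCs and at such low levels elsewhere, it could not be set against MERVL-int.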

How the data were processed

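RNA was measured in 18 libraries, 3 per group, made with a stranded poly(A) kit per the labels' protocols. The submitters' processing notes name build mm10 and, without their roles, deepTools, DESeq2, featureCounts, Bowtie2, TopHat2 2.0.13 and Trim Galore. The files hold the authors' deposited results: base mean (a signal), log2 fold change and its standard error (log2), Wald statistic (a score), p-value and adjusted p-value, per the file headers. The Wald statistic equalled log2 fold change over SE in all 1132, 1249 and 1255 tested rows of ESCs, NPCs and macrophages, within a relative 1e-06. Rows with a base mean under 1 had absolute log2 fold changes of at most 0.25, 0.37 and 0.42, so fold changes may be shrunken towards 0, though nothing states this. The treatment of multi-mapping reads and of strand is not stated in these sources. MT2 rows, and an LTR and its internal part, may therefore share reads, and transcripts of genes that hold a copy can enter a row. The CASTEiJ part of the ESC and NPC genomes differs from the reference.

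Computed here (Python 3.11.15, pandas 2.3.3, SciPy 1.17.1, figures with Matplotlib 3.10.9) were normal 95% intervals, shares, ranks, distances and differences between cell types. Other ERVL rows have exactly the class LTR/ERVL. Besides the 8 members, the rows named are the 5 nearest to MERVL-int and to MT2_Mm, the 2 called rows furthest from 0 on each side of the other ERVL and the ORR1 and MT lists, and GSAT_MM. Members, lists and rules were chosen with earlier results of these data known. The labels do not say whether replicates came from separate cultures or animals, and the spread behind the p-values may be technical. Alternatives were another threshold, adjustment over other rows, a base mean of at least 50, centring, a test against an absolute log2 fold change of 0.5, and turned signs. No sequences of the elements were used here.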

Additional observations from a re-analysis of the deposited data

Results flagged for a closer look

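Differences between cell types that passed an adjusted p of 0.05 were followed up. For ESCs minus macrophages they were 2.46 for MERVL-int, 2.20 for MT2_Mm, 1.22 for MT2C_Mm, 0.66 for MT2B2 and 0.29 for MT2B1, on the log2 scale. For ESCs minus NPCs they were 2.61 for MERVL-int, 2.18 for MT2_Mm, 1.24 for MERVL_2A-int, 0.89 for MT2C_Mm and 0.74 for MT2B2. For NPCs minus macrophages the difference of MERVL_2A-int was -0.99. Dose, and in the comparisons with macrophages strain, differed along with the cell type and cannot be told apart from it.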

How the results depend on the processing

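No paired analysis was possible because the tables hold contrasts and no values per library, and leaving out replicates was not run for the same reason. With adjustment over every row with a p, a base mean of at least 50, or centring, the counts of members called per table stayed within 1.5 times those reported. Tested against an absolute log2 fold change of 0.5, 3 members passed in ESCs (MERVL-int, MT2_Mm and MT2C_Mm), 0 in NPCs and 0 in macrophages. At an adjusted p of 0.01, 5 passed in ESCs, without MT2B1, and 3 in macrophages, without MT2_Mm and MT2A. MT2B1 then also missed for ESCs minus macrophages. With the macrophage table centred, MT2A had -0.11 and an adjusted p of 0.0791.

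With the sign of the NPC table turned, 3 members differed for ESCs minus NPCs, MT2B2 missed (0.40, adjusted p = 0.0627), and MERVL_2A-int was reversed at -0.28. With the sign of the macrophage table turned, 2 members differed for NPCs minus macrophages, MERVL_2A-int and MERVL-int, where MERVL-int was reversed at 0.83. The reversed values of MT2A, MT2B, MT2B1 and MT2C_Mm there were -0.17, 0.012, -0.057 and -0.35, and that of MT2A for ESCs minus macrophages was -0.072, where MT2B1 missed at 0.13. Shares per group were an alternative chosen after seeing the data. The differences of MERVL-int, MT2_Mm and MT2C_Mm in both comparisons with ESCs passed with either sign. MERVL_2A-int passed for ESCs minus macrophages with a base mean of at least 50 (adjusted p = 0.0460) or with the sign turned (1.698e-10, with 0.0773 as the highest value over the alternatives). Precision in NPCs limits what its table can show.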
